A study of Mus musculus with 2 samples.

Results

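The 200 genes described here had a probe that was bright in the euglycemic pool and dim in both hyperglycemic mice. A probe was taken when its Cy3 signal (pool) was called well above background, and its Cy5 signal (hyperglycemic mouse) was not, on both arrays. Of 21597 named genes on the array, 6582 had a probe bright in Cy3 on both arrays, 2015 of these met the rule, and the 200 with the highest mean log2 Cy3 signal were kept. That is 30.6% of the Cy3-bright genes for the rule, and 5.19% of the 3850 genes with a probe at least as bright in Cy3 as the member ranked last. The members were selected on the Cy3 and Cy5 detection calls and on the Cy3 signal, so their difference between channels is a description and carries no test. On array 1 alone 2876 genes met the rule, and on array 2 alone 11956.

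Pancreatic lymph node RNA was taken from female NOD mice aged 16 weeks, a strain prone to autoimmune diabetes. Each of 2 hyperglycemic mice (blood glucose above 500 mg/dl) was labelled with Cy5 on an array of its own, and 1 pool of 2 euglycemic mice (below 200 mg/dl) was labelled with Cy3 on both arrays, from 1 ug of total RNA per sample. The pool is 1 control sample read on each array, and how control mice differ among themselves was not measured. Dyes were not swapped, so a dye effect and a difference between the groups cannot be told apart for any member. The labels name no treatment, transgene or deleted allele for any mouse.

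The pancreatic lymph node drains the pancreas. T cells and B cells enter such a node from the blood by means of adhesion receptors, and interferons switch on antiviral and antigen presentation genes in its cells. Liver-made plasma proteins and drug-metabolizing enzymes are textbook products of hepatocytes and are not defining genes of a lymph node.

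The lymph node label was checked against 10 defining leukocyte genes. For 8 of them (Cd74, Cd79b, Ptprc, H2-Aa, Cd3d, Ms4a1 and Cd3g among them) the brightest probe was bright in both channels on both arrays, and those of Cd3e and Cd79a were not bright in Cy3. The Cy5 channel was weak. The median raw Cy5 signal over gene spots was 37.7 and 38.2 over a local background of 35 on each array, and 14.5% and 16.4% of gene spots were well above background in Cy5, against 21.7% and 63.0% in Cy3. Array 1 also carried an uneven Cy3 background: its fitted surface had a median of 122 over gene probes and reached 895, against 48.2 and at most 51.1 on array 2. The median of that surface was 129 at the members, and 57 of them (28.5%) lay above the upper quartile of all gene probes, as did 29.4% of all probes bright in Cy3. LOC675624, Itgal, Eif2s1 and Vps18, described below, were brighter in Cy3 on array 1 than on array 2. The surface at their spots was 777, 844, 843 and 725. It was also high at some members brighter on array 2, among them Serpina3k (855), Dguok (812), Igh-VJ558 (784), Ms4a4b (722) and Cklf (689). The part of the surface in these Cy3 signals was not tested.

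Promoter sequences are shown for 3 members of the interferon-inducible group, which is among the brightest. These 3 are shown because a known interferon response element was found in them. Of the 200 members 155 had an entry in the RefSeq promoter table (build GRCm38.p6), among them 6 of 10 interferon members and 10 of 15 liver products. The window searched ran from 250 bases before to 50 bases after the gene start. The interferon-stimulated response element, searched on both strands as 2 copies of GAAA with any 2 bases between them, was found for Gbp2, Gm1966 and Phf11 (now Phf11a). It was present in 3 of the 6 interferon members, in 5.19% of member genes and in 3.99% of the 27025 genes of the table. The 250 bases before each start are given 5′ to 3′ with the match in capitals, which mark letters alone and not a tested site.
Gbp2 (chr3:142620413-142620662, plus strand): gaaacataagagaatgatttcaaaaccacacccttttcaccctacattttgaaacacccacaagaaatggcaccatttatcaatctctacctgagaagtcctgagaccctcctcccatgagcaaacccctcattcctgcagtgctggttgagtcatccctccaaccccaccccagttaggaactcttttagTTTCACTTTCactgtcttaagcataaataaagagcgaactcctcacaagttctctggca
Gm1966 (chr7:106644646-106644895, minus strand): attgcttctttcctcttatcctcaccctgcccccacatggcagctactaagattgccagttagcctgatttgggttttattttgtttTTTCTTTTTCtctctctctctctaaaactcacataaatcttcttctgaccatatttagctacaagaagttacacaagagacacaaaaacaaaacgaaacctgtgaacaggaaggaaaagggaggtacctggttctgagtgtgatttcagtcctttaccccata
Phf11a (chr14:59297523-59297772, minus strand): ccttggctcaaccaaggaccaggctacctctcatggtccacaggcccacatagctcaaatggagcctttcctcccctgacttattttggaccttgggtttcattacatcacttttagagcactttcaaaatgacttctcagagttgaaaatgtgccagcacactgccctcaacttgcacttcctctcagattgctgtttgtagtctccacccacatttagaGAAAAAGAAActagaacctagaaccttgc

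The match began 59 bases before the start in Gbp2, 163 in Gm1966 and 29 in Phf11a, and in Gm1966 it lay within a run of T and C. The gamma-activated site TTCNNNGAA, which reads the same on both strands, was found in 0 of the 6 interferon members and in 9.55% of all genes. The HNF1 motif of liver promoters, searched as GTTAAT and TTAAC with any 2 bases between them on both strands, was in 0 of the 10 liver products and in 0.0481% of all genes.

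Processed signals are given throughout in scanner units after background subtraction and dye normalization by the scanner software, with array 1 (mouse 1) before array 2 (mouse 2). Over the 200 members Cy3 ran from 521 to 2267 on array 1 (median 698) and from 571 to 3175 on array 2 (median 1044). Cy5 ran from 77.2 to 478 in mouse 1 (median 259.6) and from 91.1 to 646 in mouse 2 (median 378). On array 1 Cy3 was above Cy5 for every member, and on array 2 for all but Vps18, a subunit of vacuolar sorting complexes, at 923 and 643 in Cy3 and 448 and 646 in Cy5.

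Most dim Cy5 signals were still measurable. The Cy5 signal was significantly above background, a weaker call of the scanner software, for 189 of the 200 members in mouse 1 and for 179 in mouse 2, and in neither mouse for 4 (Mup3, Mug2, Nfe2l2 and Krcc1). The Cy3 signal divided by the Cy5 signal had a median of 2.88 on array 1 and 2.89 on array 2 over the members. It was 1.07 and 1.09 over the 4250 other named probes at least as bright in Cy3. The rule took the members for their dim Cy5, so this gap follows from the selection and is no evidence of a difference. The quotient was above 2 on both arrays for 146 members and above 5 on both for 18.

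**Figure D1:**
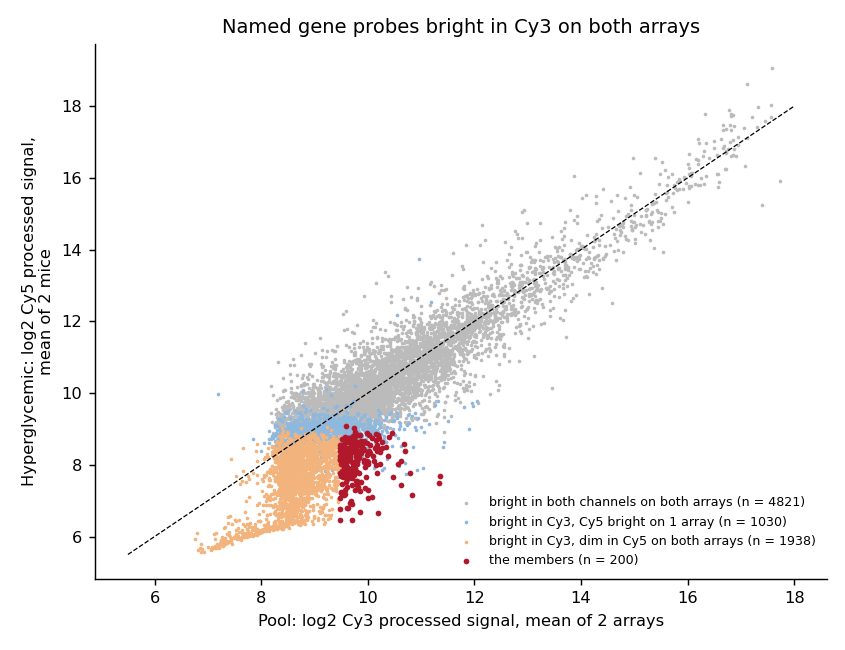
Mean log2 Cy3 signal of the pool (horizontal) against mean log2 Cy5 signal of the hyperglycemic mice (vertical) for named gene probes bright in Cy3 on both arrays, with equal signals on the dashed line. The 200 members (dark red) form the right edge of the 2138 probes that met the rule, below most of the 4821 probes bright in both channels (grey).

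A ratio of pool over hyperglycemic was also computed after normexp background correction and loess, from the means over both arrays. It compares different dyes and is open to dye bias. A lower bound was intended, with Cy5 raised to the lowest level that counted as well above background on its array, but after this normalization 0 of the 200 members had a Cy5 level under that limit. These values are therefore the normalized ratios themselves, not bounds, and they ran from 1.01 to 1.80 with a median of 1.20. On the processed signals the limit stood above the Cy5 signal of 158 members on at least 1 array, and the ratio with Cy5 raised to it ran from 1.43 to 10.8 with a median of 2.44. The size of the ratio thus followed the normalization, and it lay above 1 for all 200 members under both. Normalized ratios below are those after normexp and loess, and are given only for members none of whose probes was well above background in Cy5 on any array, of which there were 153.

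The T and natural killer cell group held 11 members. Gpr171, an orphan G protein-coupled receptor of T cells and the brightest member of all (mm8 chromosome 3, 59185149 to 59185208), read 2162 and 3175 in Cy3 and 135 and 316 in Cy5. Its raw Cy5 signals of 40.0 and 43.9 lay just above the local background, and raw Cy3 was 5307 and 2935. The normalized ratio of Gpr171 was 1.80.

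Cd8b1, the beta chain of the CD8 co-receptor, read 1064 and 1668 in Cy3 and 219.8 and 417 in Cy5, with a normalized ratio of 1.29. The member probe of its partner Cd8a read 587 and 938 in Cy3 and 163 and 347 in Cy5. Both Cy5 values of each of these genes lay below both Cy3 values. Another Cd8a probe, bright in both channels, had deposited log2 ratios of hyperglycemic over pool of -1.67 and -1.98.

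Slamf6, a homotypic receptor of T, B and natural killer cells, read 719.8 and 1097 in Cy3 and 397 and 125 in Cy5, the lower Cy5 value in mouse 2. Another of its probes met the rule as well, at 610 and 1011 in Cy3. Its Cy5 signals of 394 and 471 had the reverse order between mice. Cd69, the early activation receptor that retains T cells in the node, read 569 and 911 in Cy3 and 91.4 and 469.9 in Cy5, the lower Cy5 value in mouse 1. The cytotoxic granule protein Nkg7 read 658 and 972 in Cy3 and 294 and 293 in Cy5, almost equal in both mice. Its second probe was bright in both channels, with deposited log2 ratios of -1.81 and -1.02.

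Also in the group were the T cell kinase Prkcq at 650.5 and 894 in Cy3 and 219 and 373 in Cy5 and the receptor Gpr83 at 613 and 888 in Cy3 and 123 and 329 in Cy5. Ms4a4b was at 878 and 1207 in Cy3 and 244 and 101 in Cy5 and Gimap5 at 903 and 1463 in Cy3 and 153 and 311 in Cy5. Ms4a4b, a membrane protein of T cells, had 3 further probes bright in both channels, all with deposited ratios below 0 in both mice, from -2.25 to -1.20. Gimap5, a GTPase needed for lymphocyte survival, did not behave the same in all its probes. Its second probe was bright in both channels, with deposited log2 ratios of 1.55 in each mouse, so the direction of Gimap5 differed between its probes. Over the whole T cell list, 31 genes had a probe bright in Cy3 and 8 of them (25.8%) met the rule, against 30.6% of all genes. Members were 5 of the 31 (16.1%), against 3.04% of all Cy3-bright genes. Membership also selects on Cy3 brightness, so the shares are a description.

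Of B and plasma cell genes 4 were members. Xbp1, the transcription factor of the secretory plasma cell programme, read 1113 and 1657 in Cy3 and 424 and 455 in Cy5, with a normalized ratio of 1.33. Cr2, the complement receptor of B cells and follicular dendritic cells, read 712 and 1102 in Cy3 and 113 and 269 in Cy5. The B cell kinase Btk read 610.4 and 862 in Cy3 and 320.4 and 462 in Cy5. The immunoglobulin heavy chain probe Igh-VJ558 read 718 and 798 in Cy3 and 206 and 97.8 in Cy5, while 4 further probes under that name were bright in both channels with Cy3 up to 53447 on array 2. Variable-region genes are near copies of each other, so the Igh-VJ558 probe may not stand for 1 gene. Of 26 B cell list genes bright in Cy3, 7 (26.9%) met the rule, against 30.6% of all genes. Members were 2 of the 26 (7.69%), against 3.04% of all Cy3-bright genes.

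The interferon group held 10 members, of which 5 ranked among the 20 brightest.

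Epsti1, an interferon-induced protein of epithelial and immune cells, read 1143 and 1753 in Cy3 and 139 and 293 in Cy5, with a normalized ratio of 1.35. Gbp2, a guanylate-binding GTPase against intracellular pathogens, read 1056 and 1446 in Cy3 and 419.7 and 296 in Cy5, with a normalized ratio of 1.35 and the lower Cy5 value in mouse 2. The transcription factor Irf5 read 939 and 1489.6 in Cy3 and 333 and 551 in Cy5, with a normalized ratio of 1.30. Phf11 was at 724 and 1092 in Cy3 and 171 and 426 in Cy5, and Trim56, a ubiquitin ligase of the antiviral response, at 652 and 948 in Cy3 and 136 and 434 in Cy5. The clone 5830443L24Rik, now named Gbp8, was at 625 and 969 in Cy3 and 258 and 299 in Cy5.

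A further 3 of the group were very large inducible GTPase genes or similar sequences. LOC675624, described on the array as similar to this GTPase, read 1689 and 1480.4 in Cy3 and 269 and 284 in Cy5. The brighter Cy3 signal was on array 1, where the background surface at its spot was 777. Gvin1 read 867 and 1365 in Cy3 and 170.4 and 109 in Cy5, with its mouse 2 signal not significantly above background. Gm1966 read 878 and 1350.2 in Cy3 and 363 and 508 in Cy5. The lowest quotient of Cy3 over Cy5 among these 3 was 2.42, for Gm1966 on array 1. The probes of LOC675624 and Gm1966 lay 94300 bases apart on mm8 chromosome 7, and the family's copies are so alike that a probe may read several. A second Gvin1 probe met the rule, and the last was bright in both channels at deposited ratios of -0.65 and -1.26. In the interferon response list 11 of 32 genes bright in Cy3 (34.4%) met the rule, near the 30.6% of all genes. Members were 2 of the 32 (6.25%), against 3.04% of all Cy3-bright genes.

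Genes made mainly in the liver gave 15 members and had unlike Cy5 signals in the mice. In mouse 2 the Cy5 signal was significantly above background for 3 of the 15 (Pglyrp2, Cfi and Ces3), against 13 of 15 in mouse 1. Among the 185 other members it was so for 176 in each mouse. The quotient of Cy3 over Cy5 was higher on array 2 than on array 1 for 15 of 15 liver products, with medians of 9.52 on array 2 and 3.39 on array 1. It was higher on array 2 for 101 of the 185 others, with medians of 2.79 on array 2 and 2.86 on array 1. This grouping of the members was made after their values had been seen, so the counts are a description.

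Serpina3k, a serine protease inhibitor of plasma (chromosome 12, 104746485 to 104746544), read 2267 and 2965 in Cy3 and 289 and 114 in Cy5. Its signal in mouse 2 was the lower of the mice, and a second probe showed the same order at 3102 and 4182 in Cy3 and 1493 and 403 in Cy5. Mug1, a murinoglobulin protease inhibitor, read 1291 and 1927 in Cy3 and 272 and 110.4 in Cy5, with a normalized ratio of 1.54. The member probe of its near copy Mug2 read 701 and 982 in Cy3 and 78.4 and 101 in Cy5, low in both mice. Another Mug2 probe, not bright in Cy3, read 63.4 and 118 in Cy3 and 72.5 and 690 in Cy5. Its Cy5 signal in mouse 2 was thus not low, and the probes of Mug2 differed there. The member probes of Mug1 and Mug2 lay 196480 bases apart on mm8 chromosome 6, and cross-reading between these copies was not tested.

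For Bhmt, Plg, Agxt, Akr1c6 and Slc27a2 the Cy5 signal was lower in mouse 2 than in mouse 1. Bhmt, which remethylates homocysteine, read 577 and 927 in Cy3 and 399 and 109 in Cy5. Plg, the precursor of plasmin, read 562 and 904 in Cy3 and 446 and 107 in Cy5. In both genes the Cy5 signal of mouse 1 approached Cy3 on its array, and that of mouse 2 was not significantly above background. Agxt, a peroxisomal aminotransferase, was at 774 and 1125 in Cy3 and 328 and 102 in Cy5, the steroid dehydrogenase Akr1c6 at 649 and 1242 in Cy3 and 264 and 106 in Cy5 and the fatty acid transporter Slc27a2 at 661 and 1043 in Cy3 and 299 and 100.2 in Cy5, with the same order.

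For other liver products both mice were low. The major urinary protein Mup3 read 777 and 1094 in Cy3 and 91.0 and 115 in Cy5, the cytochrome Cyp2f2 614 and 1014 in Cy3 and 116 and 105 in Cy5, the sulfotransferase Sult3a1 647 and 935 in Cy3 and 118 and 106 in Cy5 and the carboxylesterase Ces3 (now Ces1d) 613 and 1087 in Cy3 and 103 and 146 in Cy5. Mup3, Ces3 and Sult3a1 belong to families of close copies, so the values may not be those of a single gene. Pglyrp2, an amidase of bacterial cell walls, at 1068 and 1557 in Cy3 and 315 and 412 in Cy5, and the complement protease Cfi, at 745 and 1254 in Cy3 and 334 and 455 in Cy5, had signal in both mice.

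**Figure D2:**
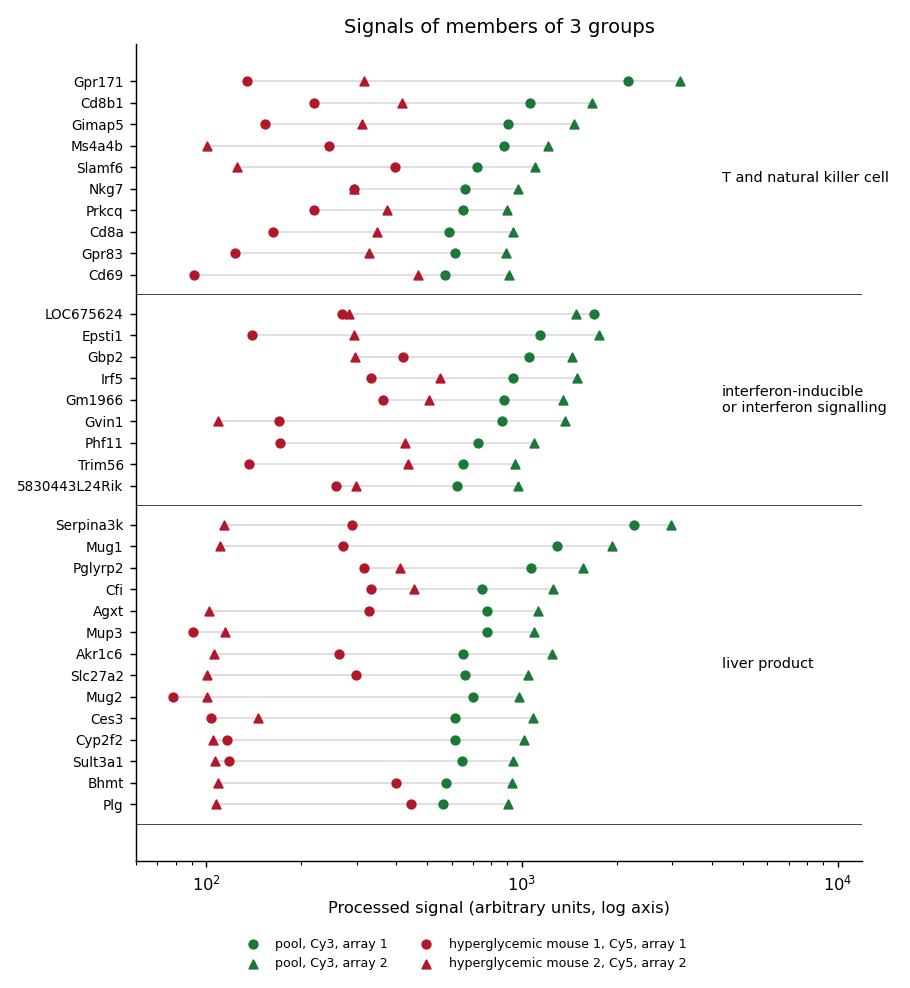
Processed signals on a log axis for 33 members of 3 groups, with the pool in green and the hyperglycemic mice in dark red, circles for array 1 and triangles for array 2. No dark red point overlaps a green one in any row, and the triangles of most liver products sit near 100 while 9 of the 14 circles drawn for them lie between 264 and 446.

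**Figure D3:**
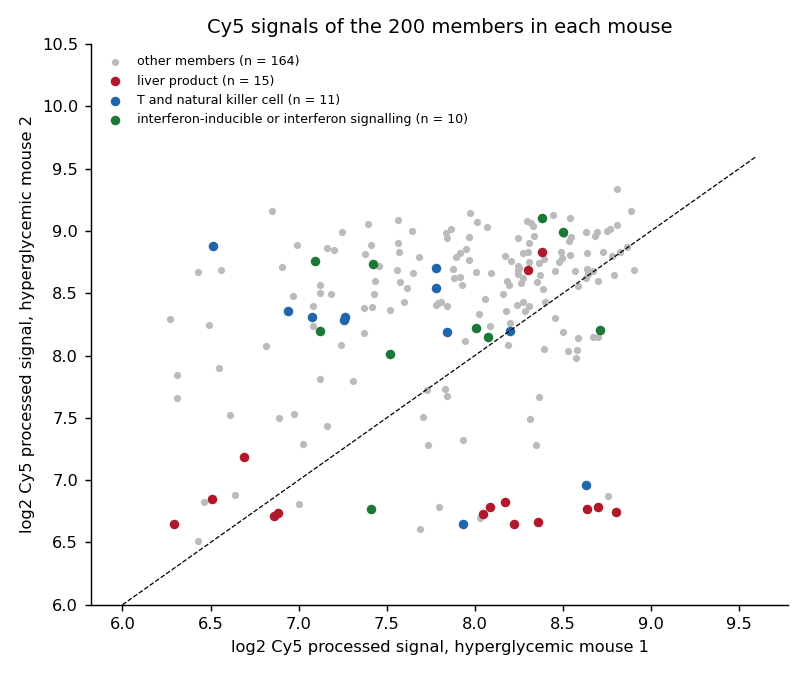
Log2 Cy5 signal of each of the 200 members in mouse 1 (horizontal) and mouse 2 (vertical), coloured by group, with equal signals on the dashed line. Among the liver products (dark red) 10 of 15 lie below the line and 13 of 15 at or below 7.19 in mouse 2, whereas 151 of the 185 other members lie above the line.

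The whole liver list showed the same difference, in genes bright in both channels too. Of its 61 genes on the array 42 had a probe bright in Cy3. The brightest probe was well above background in Cy5 for 28 of the 42 (66.7%) in mouse 1 and for 13 (31.0%) in mouse 2, against 66.4% and 71.4% of all genes. The median log2 of Cy5 over Cy3 was -0.53 in mouse 1 and -2.74 in mouse 2, and it was the lower in mouse 2 for 41 of the 42 genes. Summed over these 42 probes the Cy3 signal was 0.891% and 0.872% of that over all Cy3-bright genes, and the Cy5 signal 0.597% in mouse 1 and 0.310% in mouse 2. Albumin (Alb1), a defining hepatocyte gene, was bright in every channel, at 22173 and 27152 in Cy3 and 9458 and 3627 in Cy5. Fibrinogen gamma (Fgg) read 3143 and 4700 in Cy3 and 1969 and 131 in Cy5. Fewer cells of a type and less RNA per cell cannot be told apart in such bulk samples, and the part that liver-type cells have in these values was not tested. The liver genes that met the rule numbered 15 of 42 (35.7%), near the 30.6% of all genes. Of these Serpina3k, Mup3, Bhmt and Plg were members, 9.52% of the 42 against 3.04% of all Cy3-bright genes.

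**Figure D4:**
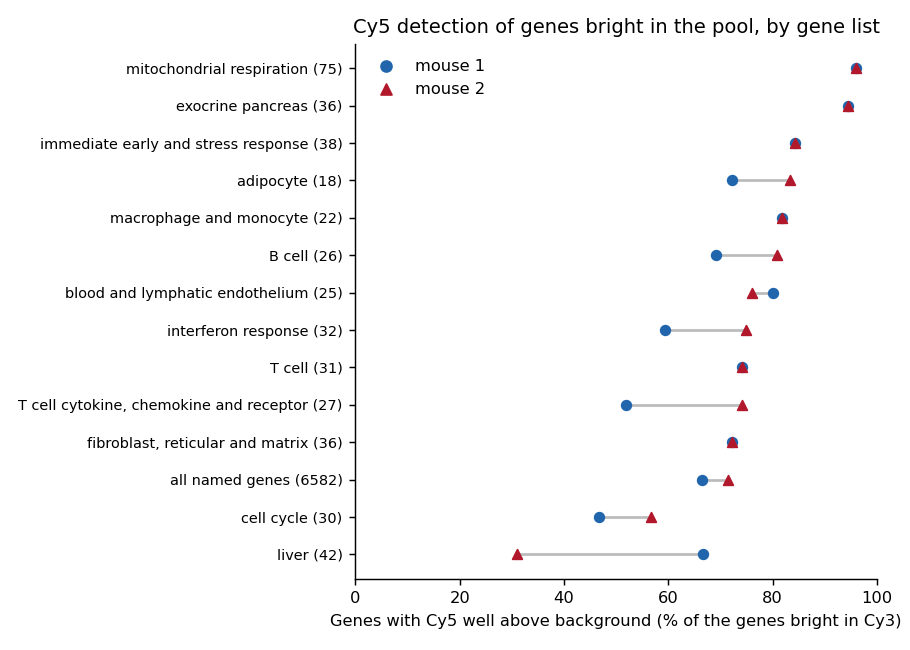
Share of genes bright in Cy3 whose brightest probe was also well above background in Cy5, for mouse 1 (circles) and mouse 2 (triangles), in the lists with at least 15 such genes (number in brackets). The liver list is at 66.7% in mouse 1 and 31.0% in mouse 2, while all named genes are at 66.4% and 71.4%.

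Genes of leukocyte signalling, adhesion and survival gave 23 members. Cklf, a chemokine-like factor and the third in brightness (chromosome 8, 107152437 to 107152496), read 1524 and 2168 in Cy3 and 130.1 and 157 in Cy5, with a normalized ratio of 1.64. Its other probe met the rule too, at 488 and 723 in Cy3 and 172 and 269 in Cy5. Sipa1, which switches off the adhesion GTPase Rap1, read 965 and 1489.7 in Cy3 and 309 and 346 in Cy5. Bcl2a1c, of the anti-apoptotic A1 family of close copies, read 777 and 1354 in Cy3 and 173 and 387 in Cy5, and Rgs14, a regulator of G protein signalling, 818 and 1228 in Cy3 and 135 and 301 in Cy5.

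Itgal, the alpha chain of the integrin LFA-1, read 912 and 746 in Cy3 and 79.4 and 202 in Cy5, and a second probe, bright in both channels, had deposited log2 ratios of -1.01 and -1.30. Ptprc, the leukocyte phosphatase CD45, read 624 and 948 in Cy3 and 194 and 344 in Cy5. Of its other probes 2 met the rule, and the brightest, at 8533 and 14123 in Cy3, had deposited ratios of -1.18 and -1.06. Dennd2d was at 669 and 1049 in Cy3 and 128 and 112 in Cy5, and its probe bright in both channels had deposited ratios of -2.16 and -2.04. The member probe of Apbb1ip, an adaptor between Rap1 and integrins, read 537 and 960.4 in Cy3 and 86.0 and 91.1 in Cy5. It was low in both mice, and another probe met the rule. A further Apbb1ip probe, bright in both channels, read 613 and 806 in Cy5, with deposited ratios of -0.55 and -0.95. For Cd47, the signal that protects cells from engulfment, the member probe read 586 and 978 in Cy3 and 145 and 361 in Cy5, but the mean deposited ratios of 3 other probes ran from -0.19 to 0.15.

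Cytoskeletal genes numbered 14. The membrane skeleton protein Add3 (chromosome 19, 53299718 to 53299777) read 1371 and 1944 in Cy3 and 303 and 493 in Cy5, while its other probe, bright in Cy5 on 1 array, read 317 and 517 in Cy3 and 681 and 486 in Cy5. The exchange factor Arhgef18 was at 864 and 1500.3 in Cy3 and 115 and 572 in Cy5, integrin-linked kinase Ilk at 735 and 1193 in Cy3 and 238 and 443 in Cy5, the actin polymerization factor Vasp at 740.4 and 1176 in Cy3 and 247 and 464 in Cy5 and moesin (Msn) at 753 and 1118 in Cy3 and 336 and 265 in Cy5. Both Cy5 signals stayed below both Cy3 signals for these 5 member probes. The adaptor Nck1 read 582 and 899 in Cy3 and 93.5 and 239 in Cy5, and another Nck1 probe met the rule.

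Translation and RNA processing gave 19 members, with quotients of Cy3 over Cy5 of 2.18 and 2.50 at the median, among the lowest of the groups. The nucleolar protein Nol12 read 865 and 1535 in Cy3 and 268 and 525 in Cy5, the peptidyl-tRNA hydrolase Ptrh2 774 and 1141 in Cy3 and 359.7 and 456 in Cy5 and the initiation factor subunit Eif2s1 946 and 844 in Cy3 and 159 and 223 in Cy5. The factors Eif5a, at 722 and 1024 in Cy3 and 327 and 385 in Cy5, and Eif4a1, at 676 and 959.6 in Cy3 and 244 and 159.9 in Cy5, each had a much brighter probe with deposited ratios of -0.22 and -0.18 for Eif5a and of -0.66 and -0.68 for Eif4a1. From some large families that are bright in the node few genes were dim in Cy5. Of 80 Cy3-bright ribosomal protein genes 7 (8.75%) met the rule with Rpl7l1 the member, and of 51 splicing factor genes 4 (7.84%) with no member. Of 75 respiratory chain genes 5 (6.67%) met it, with Cycs the member. The share over all genes was 30.6%. Other large families were not low: 13 of 46 translation factor genes (28.3%) and 17 of 63 mitochondrial ribosomal protein genes (27.0%) met the rule. For solute carriers it was 29 of 76 (38.2%) and for zinc finger genes 37 of 86 (43.0%). None of the shares given by list or family was matched to all genes for Cy3 brightness. Among the 3850 genes with a probe at least as bright as the last member the share was 5.19%. A low or high share of a family is therefore not read as a trait of that family.

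Mitochondrial and redox genes gave 11 members. The peroxiredoxin Prdx3 read 1019 and 1509 in Cy3 and 415 and 387 in Cy5, catalase (Cat) 808 and 1275 in Cy3 and 289.8 and 329 in Cy5 and the deoxyguanosine kinase Dguok 1006 and 1101 in Cy3 and 329.8 and 428 in Cy5. The member probe of Nfe2l2, the transcription factor of the antioxidant response, was at 978 and 1402 in Cy3 and 88.3 and 113 in Cy5, with neither mouse significantly above background. Another Nfe2l2 probe was bright in both channels at deposited log2 ratios of 0.73 and 0.63, the opposite direction. Cytochrome c (Cycs) read 646 and 993 in Cy3 and 416 and 283 in Cy5. A second Cycs probe met the rule, and the last had deposited ratios of -0.74 and -0.98.

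Protein folding and turnover gave 12 members. The peptidase Apeh read 1106 and 1782 in Cy3 and 431 and 512 in Cy5, and its other probe had deposited ratios of -0.95 and -0.98. The ubiquitin ligase D11Ertd759e (now Rnf213) was at 911 and 1448 in Cy3 and 350.5 and 316 in Cy5, the chaperone Hsp110 (now Hsph1) at 824 and 1259 in Cy3 and 379.5 and 409 in Cy5, the glutathione-degrading enzyme Chac1 at 704 and 1119 in Cy3 and 259 and 539 in Cy5, the ubiquitin-conjugating enzyme Ube2d2 at 597 and 920.5 in Cy3 and 250.04 and 494 in Cy5 and the proteasome subunit Psmd7 at 521 and 1101 in Cy3 and 349 and 561 in Cy5. Another Psmd7 probe met the rule. Of proteasome genes 3 of 35 bright in Cy3 (8.57%) did so, and of ubiquitin genes 18 of 48 (37.5%), against 30.6% of all genes, again not matched for Cy3 brightness.

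Transcription and chromatin genes gave 17 members, Golgi, glycosylation and membrane traffic genes 15, and DNA replication and division genes 6. Gtf2i, a general transcription factor, read 933 and 1365 in Cy3 and 304 and 416 in Cy5. The zinc finger genes Zfp706, Zfp524, Zfp444 and Zfp764 had Cy3 signals between 627 and 713 on array 1 and Cy5 signals between 195.9 and 473 in mouse 1. Atf7ip, a chromatin cofactor, read 609 and 944 in Cy3 and 407 and 284 in Cy5, and 2 more of its probes met the rule. The same held for Pb1, a name that no entry of the RefSeq table matched, at 702 and 1072 in Cy3 and 448 and 529 in Cy5.

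Gfpt1, the entry enzyme of hexosamine synthesis (2810423A18Rik on the array), read 977 and 1397 in Cy3 and 414 and 510.01 in Cy5, the sialyltransferase St3gal1 927 and 1403 in Cy3 and 466 and 468 in Cy5 and the sulfotransferase Chst3 836 and 1290.4 in Cy3 and 411 and 497 in Cy5. The clones 5830482F20Rik, at 901 and 1361 in Cy3 and 166 and 449.8 in Cy5, and 9930116N10Rik, at 784 and 1254 in Cy3 and 127 and 472 in Cy5, both carry the current name Rinl, a Rab exchange factor. Their probes lay 9301 bases apart on mm8 chromosome 7, so the 200 array names stand for fewer genes. Of the division group, the kinase Nme3 read 801 and 1358 in Cy3 and 292 and 378 in Cy5 and the replication protein Rpa1 661 and 1043 in Cy3 and 439 and 445 in Cy5. Of 30 Cy3-bright genes of the cell cycle list 14 (46.7%) met the rule, against 30.6% of all genes, and 0 were members, against 3.04% of all Cy3-bright genes, so the absence of a member in a list of this length says little.

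The remaining 43 members were not placed. Serpinb6b, a serine protease inhibitor, ranked 5 in brightness (chromosome 13, 32986336 to 32986395), read 1337 and 2089 in Cy3 and 291 and 388 in Cy5, with a normalized ratio of 1.51. The clone 1810009A15Rik read 895 and 1527 in Cy3 and 233 and 517 in Cy5, and C230093N12Rik (now Fam102a) 994 and 1437 in Cy3 and 330.2 and 204 in Cy5. Glcci1 read 727 and 1155 in Cy3 and 257 and 408 in Cy5, and another Glcci1 probe met the rule at 340 and 101 in Cy3. Dpp4, a peptidase of T cells and fibroblasts (CD26), read 590.4 and 862 in Cy3 and 229.8 and 491 in Cy5, and its second probe also met the rule. The member probe of Krcc1 was low in both mice at 571 and 891 in Cy3 and 99.5 and 118 in Cy5. A brighter Krcc1 probe, bright in Cy5 on 1 array, read 1506 and 2423 in Cy3 and 339 and 730 in Cy5. Names of RIKEN clones made up 27 members, and 237 of 688 such genes bright in Cy3 (34.4%) met the rule, against 30.6% of all genes.

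The rank that closed the set fell on a smooth slope. The last members were Dcun1d2, Dpp4, Krcc1, Plg and Anks1, with mean log2 Cy3 of 9.48 each. The genes just outside were 6530401C20Rik at 9.48, Bcor, Gga3, Inpp4b and Txndc14, the last at 9.47, so the boundary separates no distinct groups.

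Other probes give readings of the member genes that the rule did not use. Of the 200 genes 113 had 181 further probes, of which 99 were not bright in Cy3, 25 also met the rule (21 genes), 43 were bright in both channels (34 genes) and 14 were bright in Cy5 on 1 array. Of the 82 that were bright in Cy3, 30.5% thus met the rule. The 30.6% of all Cy3-bright genes is counted per gene and is not a like share, so counts per probe follow. Among all named probes bright in Cy3, 2138 met the rule, 4821 were bright in both channels and 1030 were bright in Cy5 on 1 array. In all, 47 of the 200 genes had another probe well above background in Cy5 on at least 1 array.

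The 43 probes bright in both channels were all in the authors' deposited table of log2 ratios, which held 0 of the 200 member probes. Of these 43, 32 (74.4%) were below 0 in both mice, 4 were above 0 in both and 7 had opposite signs. The share below 0 in both mice over all 5072 gene probes of that table was 37.4%. The median of the 43 mean ratios was -0.78, or 1.72-fold lower in hyperglycemic mice, and that of all gene probes was 0.06. The 4 above 0 belonged to Gimap5, Pitpna, Nfe2l2 and Zfp706. These ratios come from the same arrays and RNA as the rule, so they are other probes and not other samples.

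**Figure D5:**
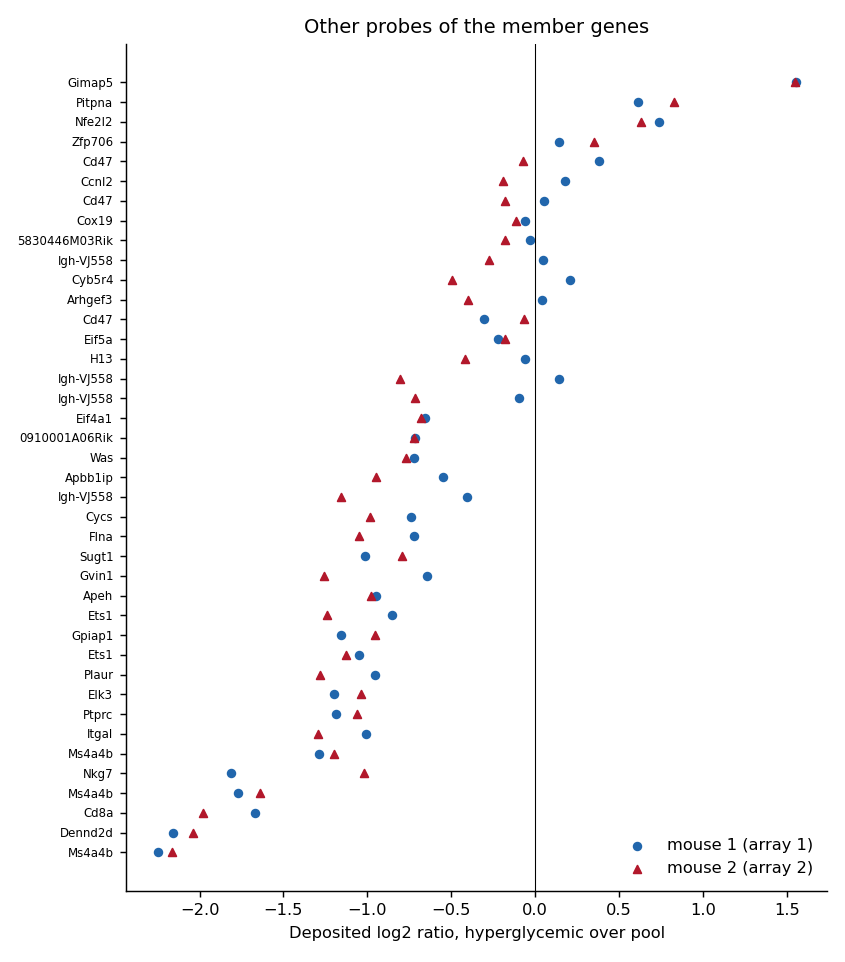
Deposited log2 ratios of hyperglycemic over pool for 40 of the 43 other probes of member genes, 1 row per probe, with mouse 1 as circles and mouse 2 as triangles and the line at 0. In 29 rows both points lie left of 0 and in 4 both lie right, with Gimap5 at 1.55 at the top.

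Some members are neighbours on the genome. All 200 probes had an mm8 position, and 14 pairs lay within 200000 bases of each other, which involved 25 members. They included Cd8b1 and Cd8a (41785 bases apart) with Krcc1 next to them, Ms4a4c and Ms4a4b (23637 bases), and Pitpna and Crk (85600 bases). Where each probe lies within its transcript was not analysed here.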

How the data were processed

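Agilent Feature Extraction 10.7.3.1 scanned both arrays, per the file headers. Spot and background columns are scanner intensity values with no normalization, per the file headers. The software also gave processed intensity, per the file headers: spatial background was removed, a surrogate stood in for any spot not above it, and dyes were normalized. Log ratios (log10, Cy5 over Cy3, per the file headers) were not used. The deposited table gives log2 ratios in that same direction with gene probe medians of 0.08 on array 1 and 0.03 on array 2, and how its probes were chosen is not given in the sources used here.

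Calls and signals were averaged over a probe's spots (197 members had 1 spot and 3 had 10), and a mean call of at least 0.5 counted as bright. Each member gene took the brightest of its probes that met the rule, and a brighter probe that did not meet it could exist. Cy5 detection by gene list used instead the brightest of all Cy3-bright probes of a gene. Normalized ratios used normexp (offset 50), loess (span 0.3, controls at weight 0, flagged spots left out) and Aquantile scaling in limma 3.58.1 under R 4.3.3. Names were matched to the RefSeq table by accession for 174 members, by symbol for 13 and by synonym for 8, and 5 had no match. The members and gene lists were chosen with earlier results of these data known, and members were sorted into groups after their values were seen. Named were the 10 brightest members, up to 4 of the brightest per list, those with another probe that met the rule, and the 5 ranks on either side of the last; further genes were chosen after their values were seen. The rule was tested on simulated data. Some genes are counted in the totals but not reported by name or drawn in the plots of single genes. No p-value was computed. Precision is limited by having only 2 arrays.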

Additional observations from a re-analysis of the deposited data

How the results depend on the processing

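No paired analysis was possible because 1 pool served both mice. Leaving out array 1 or array 2 gave 2876 to 11956 genes that met the rule (2015 with both), kept 72 to 132 of the 200 members, and put the median log2 Cy3 of the top genes at 9.84 to 10.22 (9.71 with both). Without array 1 there were 11956 genes and 132 members kept, and without array 2 there were 2876 and 72. The median normalized log2 ratio of pool over hyperglycemic was 0.11 to 0.42 (0.26 with both). The number of liver, T cell and interferon response list genes that met the rule was 15, 8 and 11 with both arrays, 48, 30 and 38 without array 1, and 15, 13 and 18 without array 2. Judging Cy5 by the weaker call of significance left 269 genes with a median log2 Cy3 of 8.27, of which 6 were among the 200 member genes. The member probe itself was significant in neither mouse for 4 members, so the rest were kept through another probe of the gene. With spots under the median of the array 1 Cy3 background surface alone, an alternative chosen after seeing the data, 898 genes met the rule and 97 members were kept. The median log2 ratio of pool over hyperglycemic was 1.29 (2.44-fold) on Agilent processed signals, with Cy5 raised to the detection limit. It was 2.27 (4.81-fold) with median centring and 0.47 with offset 10. Flagged spots left out, every spot required to agree, genes matched to RefSeq and genes with no probe bright in Cy5 on both arrays gave between 1680 and 2016 genes and kept 165 to 199 members. Ranking by other Cy3 measures kept 185 and 186. Weak Cy5 signal limits the depth here, as a dim call covers signals from background up to 478 and 646 units.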
